A study of Mus musculus with 6 samples.

Results

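The proteasome is the protease that degrades proteins tagged with ubiquitin, and 46 of the 49315 genes in the count table encode its subunits or assembly factors. They were chosen by name, as the genes whose mouse symbol is Psm, a letter from a to g and a number, or Pomp, without the immunoproteasome subunits Psmb8, Psmb9 and Psmb10. The 46 genes are 8 alpha and 8 beta subunits of the 20S core, 6 ATPases and 11 other subunits of the 19S cap, 5 activators or inhibitors, and 8 assembly factors. The mRNA libraries came from RAW264.7, a mouse macrophage-like cell line of wild-type genotype, and the labels put 3 in each group. One group had been exposed to 4 μg/mL of SKI-II, a compound first described as an inhibitor of sphingosine kinases, and the other to its vehicle DMSO, both for 24 h. The comparison asked which transcripts differed after the compound. The methods describe treatment and RNA extraction as for the quantitative PCR, which had biological replicates, but the labels do not say whether these libraries came from separate cultures. If they did not, the p-values measure only the spread between these libraries, which may be technical.

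As background, the 20S core is a barrel of stacked rings. Alpha subunits form the outer rings that gate the entry, and beta subunits form the inner rings that hold the proteolytic sites. The 19S cap recognizes ubiquitin chains, unfolds substrates with its ring of ATPases and feeds them into the core. Activators such as PA28 open the core without the cap, dedicated chaperones assemble the rings, and interferon-inducible subunits can replace the catalytic beta subunits to form the immunoproteasome. When proteasome activity is short, the transcription factor Nrf1, encoded by Nfe2l1, is known to raise many subunit genes together, after the ATPase VCP has pulled it out of the endoplasmic reticulum membrane.

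The libraries held 12495957 to 20050677 counts on genes. Macrophage identity was checked with 10 markers, of which 9 had at least 10 counts in every library, Mrc1 being below that in 1 library. Under an adjusted p of 0.05 in edgeR, Adgre1, Itgam, Lyz2 and Mrc1 fell and Cd14 rose, and the other 5 did not pass. The summed normalized counts of these markers were 141759 to 206846 in DMSO and 87286 to 124890 in SKI-II, with no overlap. Most of this fall was Lyz2, with means of 109818 and 45951. Without Lyz2, the sum was higher in SKI-II through Cd14, with means of 7668 and 20424. Without both, the other 8 markers summed to 44654 to 49377 in DMSO and 41097 to 43209 in SKI-II, again with no overlap. The part of these shifts in the results was not tested. Epithelial markers were at 0 in every library. Summed normalized counts of fibroblast markers were 7.77 to 13.9 in DMSO and 6.68 to 20.4 in SKI-II. Those of endothelial markers were 6.32 to 8.91 and 8.15 to 18.1, and those of T cell markers 0.99 to 3.89 and 1.63 to 6.71. Those of B cell markers were 0 to 2.97 and 3.26 to 4.77, with no overlap. None of these genes had 10 counts in every library. Mitochondrially encoded genes took 1.07% to 1.25% of the counts in DMSO and 1.38% to 1.71% in SKI-II, and the part of this was likewise not tested. In bulk RNA, fewer cells of a type and less RNA per cell cannot be told apart.

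Proteasome mRNAs showed small and mixed differences after SKI-II. Of the 46 genes, 45 had enough counts to be tested, and 11 of these (24.4%) passed an adjusted p of 0.05 in the quasi-likelihood test of edgeR, against 38% of the 12274 genes tested. Psmb5, Psmc2, Psmc5, Psmd4, Psmd5 and Psmf1 rose, against 18.4% of all tested genes called higher, and Psmb2, Psme1, Psme2, Psmd10 and Pomp fell, against 19.7% called lower. No member passed 1 or -1 on the log2 scale, also with DESeq2 and limma-voom, whereas 15.7% of all tested genes did so with an adjusted p under 0.05. The count at an unadjusted p under 0.05 was 11 as well. Among the 8208 tested genes with mean levels inside the range of the proteasome genes, 42.0% were called. In 9 of the 45 genes all SKI-II libraries were above all DMSO libraries (24.8% of all tested genes), and in 5 they were all below (25.5%), making 14 in either direction (50.3%). The number called lower depended on single libraries, since Psme1 alone stayed called lower when replicate 2 or replicate 3 of DMSO was left out, and likewise for replicate 1 or replicate 2 of SKI-II. The number called higher lay between 4 and 7 when each library was left out in turn.

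**Figure D1:**
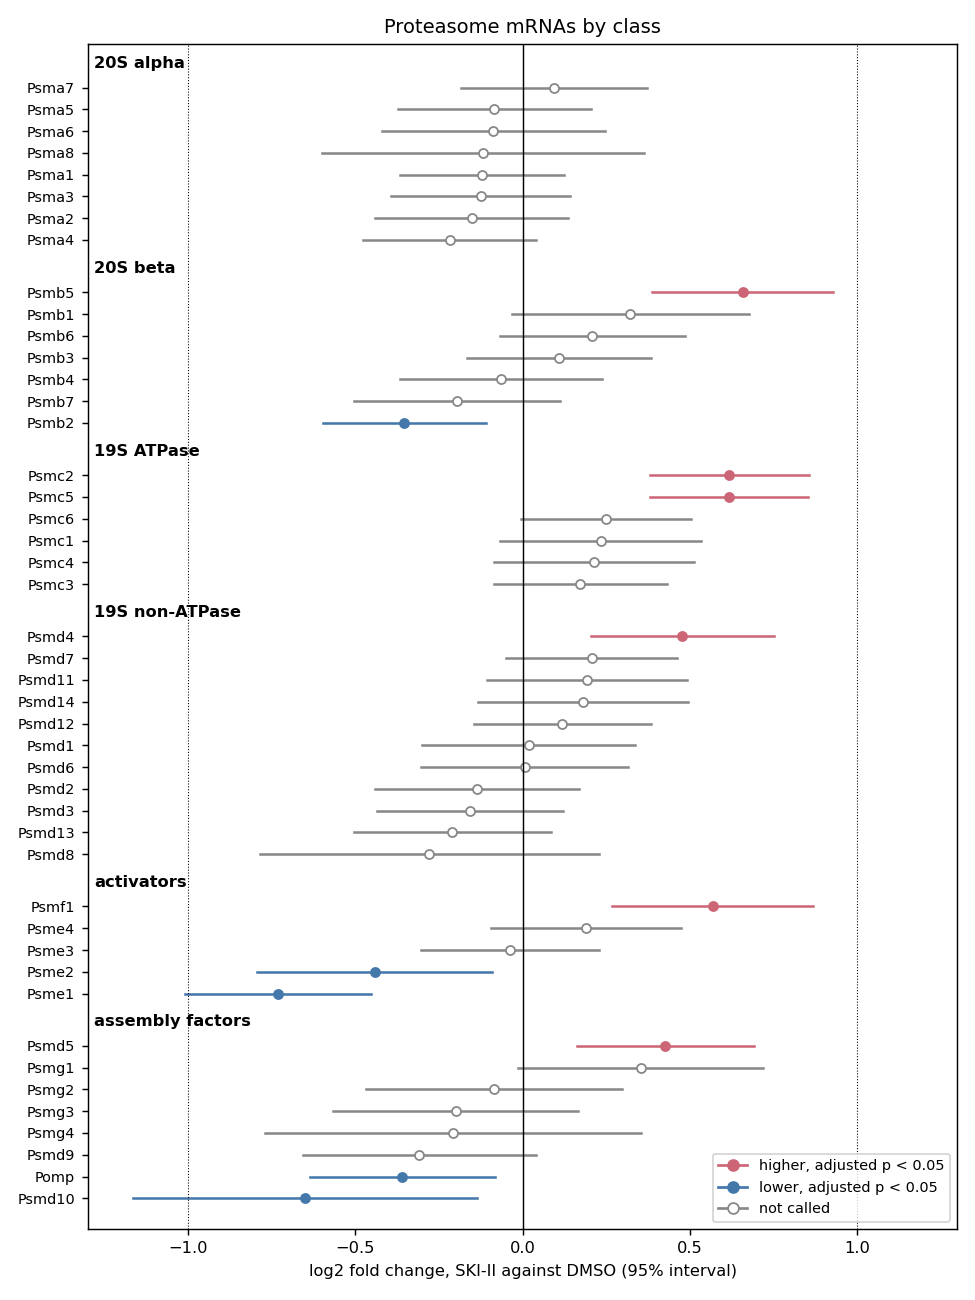
Log2 fold change of SKI-II against DMSO for the 45 tested proteasome genes, by class, with 95% intervals from the edgeR fit. Filled points passed an adjusted p of 0.05 and open points did not, and dotted lines mark log2 fold changes of -1 and 1. All points lie between -0.73 and 0.66, and all 6 ATPases lie to the right of 0.

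The sizes of the differences were small compared with the rest of the transcriptome. The median log2 fold change of the 45 genes was -0.04, with 22 above 0 and 23 below, and the median absolute log2 fold change was 0.207 against 0.408 over all tested genes. The sign of the median rested on single libraries, being 0.04 with DMSO replicate 3 left out and 0.03 with SKI-II replicate 1 left out. It was -0.00152 without DMSO replicate 1 and -0.07 without DMSO replicate 2. The largest absolute log2 fold change, 0.73 for Psme1, was exceeded by 27.6% of all tested genes. The 34 genes that were not called had 95% intervals that ran from -0.79 at the lowest to 0.72 at the highest, and 22 of them lay wholly within 0.5 of 0. The median standard error was 0.13 on the log2 scale, against 0.18 over all tested genes. It was 0.15 over the 8208 tested genes with mean levels inside the range of the proteasome genes. The whole family took 0.612%, 0.618% and 0.639% of the counts in DMSO replicates 1, 2 and 3 and 0.658%, 0.62% and 0.635% in SKI-II, and these ranges overlapped.

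**Figure D2:**
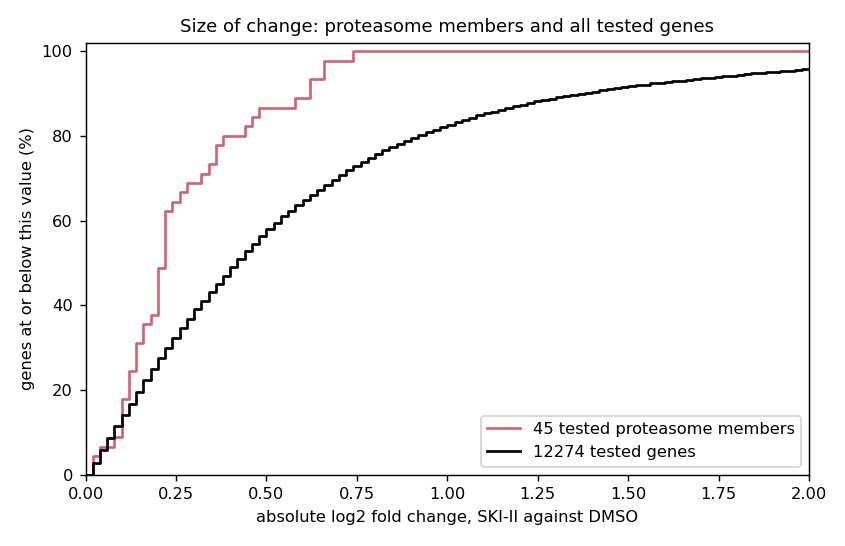
Cumulative share of genes, in percent, at or below each absolute log2 fold change of SKI-II against DMSO, for the 45 tested proteasome genes and all 12274 tested genes. The curve of the proteasome genes ends at 0.73, and that of all tested genes continues to the right beyond the axis.

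The promoters of proteasome genes were searched for the core of the antioxidant response element, the DNA word through which Nrf1 and Nrf2 are known to act, in its form TGACNNNGC on either strand. RefSeq windows on GRCm38.p6 from 250 bases before to 50 bases after the start were found for 38 of the 46 genes. Those of Psma8, Psmb1, Psmb2, Psmb7, Psmc3, Psmd3, Psmd7 and Psmg2 were not analysed here. The core was in 6 of these 38 (15.8%), those of Psmb5, Psmb6, Psmc6, Psmd9, Psmd12 and Psme4, against 17.0% of all tested genes with a window. A match describes letters and not a bound site. The 6 genes had a median log2 fold change of 0.20 and 1 of them, Psmb5, rose. The 31 tested genes with no match had a median of -0.06, and 5 rose and 4 fell, where 18.4% of all tested genes were called higher and 19.7% lower. A longer form, with an A added at the 3′ end of the core, was in 2 of 38 windows (5.26%) against 3.31%. The windows of 3 of these genes are shown because they hold the word, Psmb5 as the one that rose, and Psmc6 and Psme4 as members of other classes that did not pass the test. Psmb5 (chr14:54617946-54618245, minus strand), Psmc6 (chr14:45329574-45329873, plus strand) and Psme4 (chr11:30771525-30771824, plus strand) are printed 5′ to 3′ in the direction of the gene, with the core in capitals.
Psmb5: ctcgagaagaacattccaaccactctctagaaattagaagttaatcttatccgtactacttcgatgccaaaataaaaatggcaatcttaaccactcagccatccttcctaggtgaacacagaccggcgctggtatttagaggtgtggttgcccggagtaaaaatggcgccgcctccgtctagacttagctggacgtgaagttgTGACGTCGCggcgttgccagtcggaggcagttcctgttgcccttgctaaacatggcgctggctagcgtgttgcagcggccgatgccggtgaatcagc
Psmc6: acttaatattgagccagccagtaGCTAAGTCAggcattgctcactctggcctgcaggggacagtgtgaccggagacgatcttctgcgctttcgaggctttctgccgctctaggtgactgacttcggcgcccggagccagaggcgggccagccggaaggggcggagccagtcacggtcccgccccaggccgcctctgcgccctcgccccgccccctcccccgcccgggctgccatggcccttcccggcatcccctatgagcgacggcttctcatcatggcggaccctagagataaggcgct
Psme4: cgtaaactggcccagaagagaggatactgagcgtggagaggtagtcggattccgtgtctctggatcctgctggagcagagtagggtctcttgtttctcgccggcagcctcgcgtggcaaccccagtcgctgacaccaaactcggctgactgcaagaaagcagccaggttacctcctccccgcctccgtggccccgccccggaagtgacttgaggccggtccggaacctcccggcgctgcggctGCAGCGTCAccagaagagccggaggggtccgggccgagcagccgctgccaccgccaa
In Psmb5 the core reads along the gene and starts 47 bases before the start site. In Psmc6 and Psme4 it reads on the opposite strand, so the capitals are its reverse complement, starting 227 and 7 bases before the start site.

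Other words were searched on both strands of the same windows. CCGGAAG, the core of sites for ETS factors, was in 15 of 38 windows (39.5%) against 21.5% of tested genes. CCAAT was in 13 (34.2%) against 43.2%, and the cyclic AMP response element TGACGTCA was in none of 38 against 3.80%. The letters of an absent word are only absent from this window.

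The 8 alpha subunits, which build the gate and outer rings of the core, gave no call in either direction, against 38% of all tested genes called. Their log2 fold changes ran from -0.22 to 0.09 with a median of -0.12, and their summed normalized counts were 15017, 15364 and 17666 in DMSO and 14156, 15528 and 15359 in SKI-II, which overlap. Normalized counts here are counts scaled to a library of 16042438 counts. The lowest fold change belonged to Psma4, with 1552, 1731 and 1720 in DMSO and 1512, 1459 and 1332 in SKI-II. Leaving out DMSO replicate 3 moved the median of the class to -0.03, and leaving out SKI-II replicate 1 moved it to -0.05. No alpha subunit had an unadjusted p under 0.05, and none was called by DESeq2 or limma-voom. The SKI-II libraries of Psma4 were all below the DMSO libraries, but its adjusted p was 0.166 in edgeR. Psma7 gave the highest log2 fold change of the class at 0.09 (95% interval -0.18 to 0.37), with 1997, 2041 and 2342 in DMSO against 2301, 2471 and 2038 in SKI-II. Psma5 followed with -0.08 (-0.37 to 0.20), its libraries holding 2388, 2416 and 3025 in DMSO against 2437, 2614 and 2333 in SKI-II. The groups overlap for both. Psma7 had 0.03 without SKI-II replicate 2 and 0.17 without DMSO replicate 3. Psma5 had -0.16 without DMSO replicate 1 and 0.03 without DMSO replicate 3, so its sign rested on 1 library. Psma6 had -0.09, Psma8 -0.12, Psma1 -0.12, Psma3 -0.12 and Psma2 -0.15, all with intervals that include 0. Per kilobase of exon, Psma6 had the highest level, 2280.4 ± 353 in DMSO (SD, n = 3). Psma8, an alpha subunit known from the testis and a close relative of Psma7, was far lower with 126 ± 20.2.

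Among beta subunits the catalytic subunit Psmb5 rose and the structural subunit Psmb2 fell. Psmb5, which carries the chymotrypsin-like activity, is encoded at chr14:54614119-54618022 (GRCm38, minus strand) behind the promoter printed above. It had 1346, 1514 and 1626 normalized counts across DMSO replicates 1, 2 and 3, against 2169.6, 2464 and 2444 under SKI-II. Every SKI-II library was above every DMSO library, and the means were 1495 ± 141 and 2359 ± 164 (SD, n = 3), a log2 fold change of 0.66 (SE 0.12, 95% interval 0.39 to 0.93, edgeR adjusted p = 0.00229). The other catalytic subunits did not pass the test. Psmb6, the caspase-like subunit, had a log2 fold change of 0.21 (-0.07 to 0.48, adjusted p = 0.215 in edgeR), and Psmb7, the trypsin-like subunit, had -0.20 (-0.51 to 0.11, adjusted p = 0.296), or -0.07 with DMSO replicate 3 left out and -0.30 with DMSO replicate 1 left out. Psmb6 held 2773, 2882 and 3333 in DMSO against 3723, 3189 and 3472 in SKI-II, and Psmb7 held 2899, 3174 and 3905 against 2816, 2736 and 3159. Psmb1, a structural subunit, did not pass the test, with 0.32 (-0.03 to 0.68, edgeR adjusted p = 0.137), from 1658, 1969.8 and 2327 in DMSO and 2193, 2334 and 2918 in SKI-II, and its value was 0.19 without DMSO replicate 1 or without SKI-II replicate 3. The structural subunits Psmb3 and Psmb4 had 0.11 and -0.06. Psmb7 shares 405 bases of exon with Nek6, so its reads may be assigned with less certainty.

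Psmb2, encoded at chr4:126677630-126709714, sits in the same ring but went the other way. It had 1618, 1629 and 1661 in DMSO and 1219, 1287 and 1335 in SKI-II, so all SKI-II libraries were lower, with a log2 fold change of -0.35 (SE 0.11, edgeR adjusted p = 0.0282). Its adjusted p was 0.0968 without DMSO replicate 2, 0.0577 without DMSO replicate 3, 0.0596 without SKI-II replicate 1 and 0.0844 without SKI-II replicate 2, and 0.0941 with no filter on low counts. The thymus-specific beta subunit Psmb11 had 1 count in DMSO replicate 2 and 0 in the other libraries, and was not tested. Over the 7 tested beta subunits the median log2 fold change was 0.11, but it was 0.02 without DMSO replicate 1 and 0.21 without DMSO replicate 3. Psmb4 had the highest level per kilobase in DMSO, 1969 ± 279, whereas in SKI-II Psmb5 did, with 2624 ± 183. This rank depends on the exon lengths, 1951 bases for Psmb4 and 899 for Psmb5. By normalized counts, Psmb4 had the highest mean in both groups, 3841 in DMSO and 3672 in SKI-II.

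**Figure D3:**
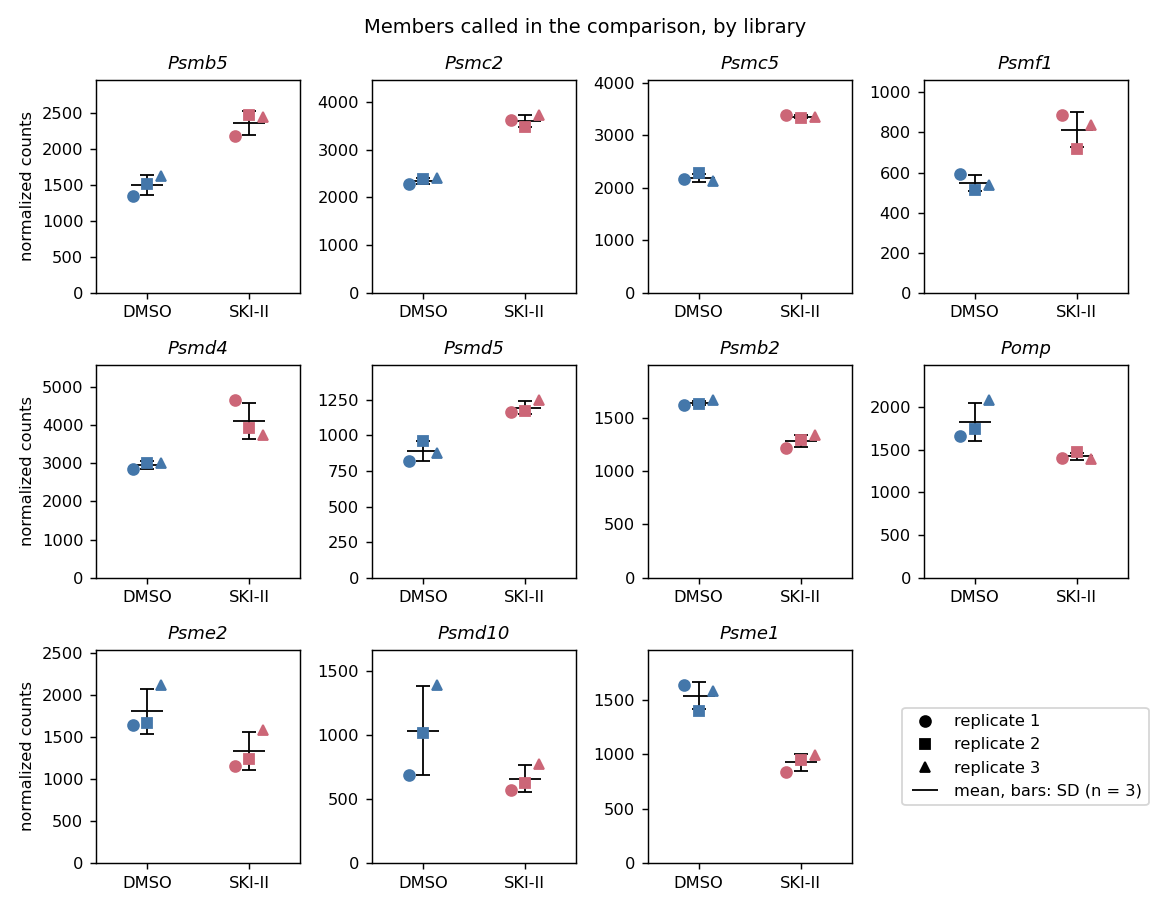
Normalized counts of the 11 called proteasome genes in each library. Points are replicates 1 to 3 of DMSO and SKI-II, and bars give the mean and SD (n = 3). The groups do not overlap except for Psmd10, whose DMSO replicate 1 lies among the SKI-II libraries.

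The 6 ATPases of the 19S cap form the ring that unfolds substrates, and all 6 had log2 fold changes above 0, from 0.17 to 0.62 with a median of 0.24. Psmc2 and Psmc5 rose (33.3% of the class, against 18.4% of all tested genes called higher and 38% called in all), and the other 4 did not pass the test. The median of the class lay between 0.18 without SKI-II replicate 1 and 0.32 without SKI-II replicate 3. Psmc2 (chr5:21785283-21803787) had 2278, 2384 and 2399 in DMSO and 3623, 3482 and 3729 in SKI-II, so the log2 fold change was 0.62 (SE 0.11, edgeR adjusted p = 0.00165). Psmc5 (chr11:106256154-106263120) had 2164, 2277 and 2126 in DMSO and 3385, 3332 and 3356 in SKI-II, with 0.62 (SE 0.11, edgeR adjusted p = 0.00153). For both, the replicates of a group lay close together and the groups were far apart. The lowest of the class was Psmc3 with 0.17 (-0.09 to 0.43), from 2771, 2746 and 2762 in DMSO and 3464, 2934 and 2931 in SKI-II. It shares 215 bases of exon with Slc39a13, and reads of that stretch may be counted with less certainty. Psmc6 had 0.25 (-0.01 to 0.50), Psmc1 0.23 (-0.07 to 0.53) and Psmc4 0.21 (-0.08 to 0.51). With SKI-II replicate 1 left out, Psmc1 had 0.12, Psmc4 0.09 and Psmc3 0.08.

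Summed over the class, the normalized counts of the ATPases were 13635, 13688 and 13528 with DMSO, against 18737, 17149 and 16607 with SKI-II. The SKI-II sums were all higher, and the ratio of the means was 1.28. The ratios of means of the other classes were 0.937 for alpha subunits, 1.06 for beta subunits, 0.99 for other cap subunits, 0.922 for activators and 0.91 for assembly factors. Divided by the sum of the alpha subunits, the ATPase sum was 0.908, 0.891 and 0.766 in DMSO and 1.32, 1.10 and 1.08 in SKI-II. The ratio was thus higher in every SKI-II library. This is given as a description, since the ATPases were set against the alpha subunits after their values were seen.

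**Figure D4:**
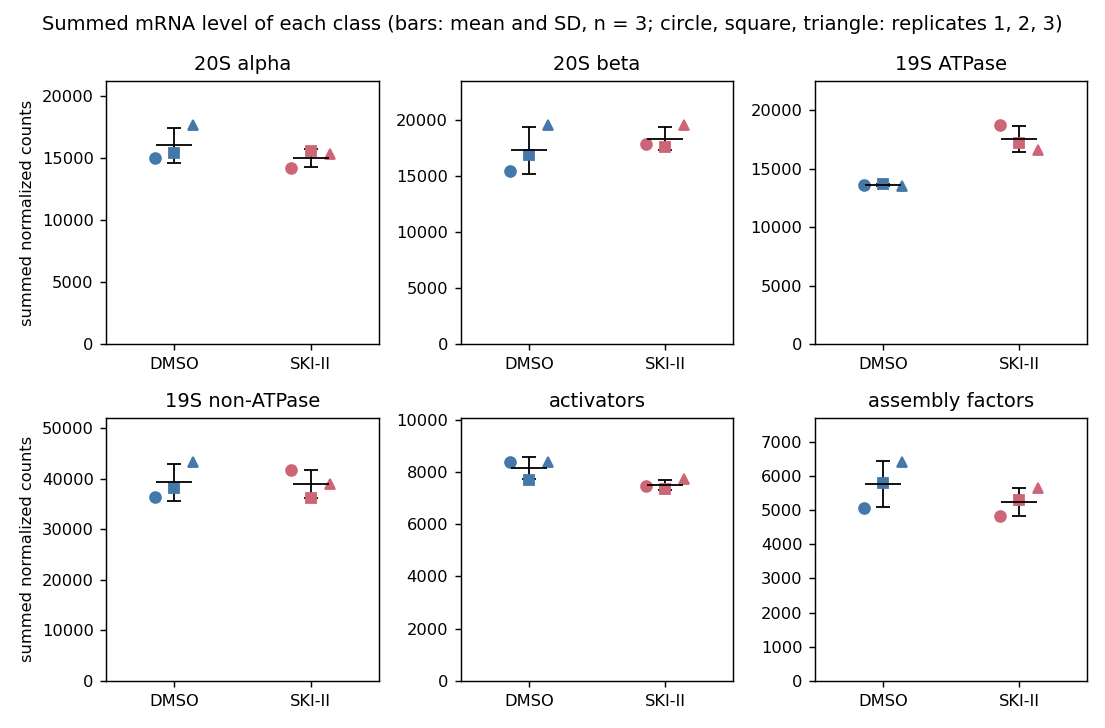
Summed normalized counts of each class of proteasome genes in each library, with the mean and SD of 3 libraries; circles, squares and triangles are replicates 1, 2 and 3. The ATPase sums lie between 13528 and 13688 in DMSO and between 16607 and 18737 in SKI-II.

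The 11 other subunits of the 19S cap include ubiquitin receptors, scaffolds and the deubiquitinase Psmd14. Their median log2 fold change was 0.02, from -0.28 to 0.48, and 1 of 11 was called (9.09%, against 38% of all tested genes). That median lay between -0.04 without SKI-II replicate 1 and 0.10 without SKI-II replicate 2, and was -0.02 without DMSO replicate 2, 0.05 without DMSO replicate 3, 0.07 without DMSO replicate 1, and with SKI-II replicate 3 left out it was 0.08. Psmd4 (chr3:95032694-95042614), a ubiquitin receptor of the cap, had 2834, 3011 and 2992 in DMSO and 4641, 3921 and 3747 in SKI-II. All SKI-II libraries were higher, with a log2 fold change of 0.48 (SE 0.12, edgeR adjusted p = 0.0125), and the adjusted p was 0.0565 without DMSO replicate 2. Psmd7, a lid subunit, followed with 0.21 (-0.05 to 0.46), from 1972, 1802 and 1701 in DMSO to 2184, 2168 and 1968 in SKI-II. The lid subunit Psmd8 had the lowest value, -0.28 (-0.79 to 0.23), with 5176, 6419.9 and 9428 in DMSO and 5506, 4694 and 7129.7 in SKI-II. That value rested on single libraries, being -0.00719 without DMSO replicate 3 and -0.47 without DMSO replicate 1. The wide interval of Psmd8 goes with DMSO libraries that differ among themselves as much as from SKI-II. Psmd2, a scaffold of the base, had the highest level per kilobase of the class in both groups, 2580 ± 227 in DMSO and 2346 ± 217 in SKI-II. Psmd11, Psmd14, Psmd12, Psmd1 and Psmd6 had log2 fold changes of 0.19, 0.18, 0.12, 0.02 and 0.01, while Psmd2, Psmd3 and Psmd13 had -0.14, -0.16 and -0.21. Single libraries moved some of these. Psmd11 had 0.08 without DMSO replicate 1, Psmd14 0.07 without SKI-II replicate 3 and Psmd1 -0.15 without SKI-II replicate 1. Psmd13 shares 342 bases of exon with Sirt3, and its value is uncertain to that extent.

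Of the 5 activators and inhibitors, the PA28 subunit genes Psme1 and Psme2 fell and the inhibitor gene Psmf1 rose, while Psme3 and Psme4 did not pass the test. The count is 60% called against 38% of all tested genes, over 5 genes, and the call of Psme2 was lost in 6 of 13 alternatives. Psme1 (chr14:55578123-55581529), the alpha subunit of PA28, gave the largest difference of the whole family. It had 1634, 1400 and 1582 in DMSO and 841, 948 and 989.9 in SKI-II, so every SKI-II library was lower, with means of 1539 ± 123 and 927 ± 76.6 and a log2 fold change of -0.73 (SE 0.12, 95% interval -1.01 to -0.45, edgeR adjusted p = 0.0015). Psme2 (chr14:55587441-55591113), its partner beta subunit and a neighbour on the same chromosome, fell as well. Its counts were 1641, 1663 and 2116 in DMSO and 1161, 1239 and 1587 in SKI-II, which gave -0.44 (SE 0.16) with an edgeR adjusted p of 0.0498. Psme2 has a near-identical copy, Psme2b, which can take reads from it, so its value is uncertain to that extent. Its adjusted p was 0.0524 with DESeq2, and rose to 0.0803 without replicate 2 and 0.15 without replicate 3 of DMSO, and to 0.136 without replicate 1 and 0.158 without replicate 2 of SKI-II.

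Psmf1 (chr2:151715812-151744186), which encodes PI31, a protein that inhibits the isolated core, had 592, 512 and 539.7 in DMSO and 886, 717 and 837 in SKI-II. All SKI-II libraries were higher, with a log2 fold change of 0.57 (SE 0.13, edgeR adjusted p = 0.00849), and the adjusted p was 0.0529 without DMSO replicate 2. Psme4, the large activator PA200, had 0.19 (-0.09 to 0.47) and did not pass the test, with 1795, 1732 and 1791 in DMSO and 2352, 1877 and 1839.7 in SKI-II. Its log2 fold change was 0.06 without SKI-II replicate 1. Psme3, the nuclear activator PA28 gamma, had a log2 fold change of -0.04 (-0.30 to 0.23). Per kilobase, Psme2 was the most abundant activator in DMSO, 1024 ± 152, and Psme3 was in SKI-II, 819 ± 66. By normalized counts, Psme3 had the highest mean in both groups, 2480 in DMSO and 2416 in SKI-II.

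Of the 8 assembly factors, 1 rose and 2 fell, which is 37.5% called against 38% of all tested genes, and the median log2 fold change was -0.20, or -0.05 without SKI-II replicate 1. Psmd5 (chr2:34849734-34874968), a chaperone of the 19S base, had 823, 964 and 879 in DMSO and 1167, 1169 and 1247 in SKI-II, all higher, with a log2 fold change of 0.43 (edgeR adjusted p = 0.0179, 0.0666 without DMSO replicate 1). Psmd10, known as gankyrin and another base chaperone, had 689, 1016 and 1383 in DMSO and 568, 625 and 772 in SKI-II. DMSO replicate 1 lay among the SKI-II libraries, and the log2 fold change was -0.65 with an edgeR adjusted p of 0.0494. The log2 fold change itself was -0.38 without DMSO replicate 3 and -0.89 without DMSO replicate 1. The adjusted p was 0.105 without DMSO replicate 2, 0.168 without DMSO replicate 3, 0.153 without SKI-II replicate 1 and 0.136 without SKI-II replicate 2, and 0.0731 with limma-voom. Pomp, which guides assembly of the core, had 1656, 1744 and 2077 in DMSO and 1407, 1470.4 and 1391 in SKI-II, with a log2 fold change of -0.36 and an edgeR adjusted p of 0.0432. The adjusted p of Pomp was above 0.05 without 5 of the 6 libraries, from 0.0818 to 0.136, and was 0.0563 with DESeq2. Psmg1, a chaperone of the alpha ring, had 0.35 (-0.01 to 0.72, edgeR adjusted p = 0.118), with 0.49 (0.0283) when SKI-II replicate 1 was left out and 0.19 (0.376) when SKI-II replicate 3 was. Its libraries held 553, 593 and 569 in DMSO and 571, 738 and 878 in SKI-II. The chaperones Psmg2, Psmg3, Psmg4 and Psmd9 had -0.09, -0.20, -0.21 and -0.31, and Psmd9 had -0.45 (edgeR adjusted p = 0.04) without DMSO replicate 1 but -0.18 (0.417) without DMSO replicate 3. Psme2 and Pomp fall outside the rule by which genes are named, as do Uchl5, Usp14 and Nploc4 among the associated genes, and these 5 were chosen after their values were seen.

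Several of these genes share a start region with a gene on the other strand. A partner with a start within 1000 bases was found for 8 of 46 genes (17.4%), against 11.4% of tested protein-coding genes. Psmc2 starts 32 bases from Dnajc2, which had a log2 fold change of -0.31 (edgeR adjusted p = 0.0584) while Psmc2 rose. Psmc5 starts 75 bases from Ftsj3, with -0.16 (edgeR adjusted p = 0.37). Psmd10 starts 179 bases from Atg4a, with -0.14 (edgeR adjusted p = 0.477), while Psmd10 fell. Psme2 starts 595 bases from Rnf31, a ubiquitin ligase subunit, which fell with -0.40 (edgeR adjusted p = 0.0499), both of them close to the threshold. The partners of the other 4 genes, Mrpl32, Ss18l1, Tbp and Cep76, did not pass the test. The difference within a pair was not tested.

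The catalytic subunits have interferon-inducible counterparts, and 2 of these 3 were called lower, against 19.7% of all tested genes. Psmb8, which replaces Psmb5, had 1720.2, 1688 and 2202 in DMSO and 847, 1016 and 1410.3 in SKI-II, with a log2 fold change of -0.78 (SE 0.19, edgeR adjusted p = 0.0103). Psmb10, which replaces Psmb7, had -0.66 (SE 0.16, edgeR adjusted p = 0.00842), from 619, 445 and 570.4 in DMSO and 331, 357 and 345 in SKI-II. For Psmb8 and Psmb10 every SKI-II library was below every DMSO library. Psmb9, which replaces Psmb6, had -0.76 (SE 0.28, edgeR adjusted p = 0.0573), and did not pass the test, though it did with DESeq2 (adjusted p = 0.0265), with limma-voom (0.0454), with no filter on low counts (0.00027) and without SKI-II replicate 3 (0.00457), where its log2 fold change was -1.16. It was -0.53 with SKI-II replicate 1 left out (adjusted p = 0.158 in edgeR), -0.56 with DMSO replicate 3 left out (0.16) and -0.68 with SKI-II replicate 2 left out (0.165). Its values were 519.6, 465 and 718 in DMSO and 213, 297 and 489.7 in SKI-II, and SKI-II replicate 3 was above DMSO replicate 2, so the groups overlap.

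Within each library, the constitutive subunit was then divided by its immunoproteasome counterpart, per kilobase of exon. The log2 ratio of Psmb5 to Psmb8 was 1.56, 1.75 and 1.47 in DMSO and 3.27, 3.19 and 2.70 in SKI-II, or 1.59 ± 0.14 and 3.05 ± 0.30 (SD, n = 3). That of Psmb6 to Psmb9 was 3.39 ± 0.21 and 4.43 ± 0.65, and that of Psmb7 to Psmb10 was 1.61 ± 0.33 and 2.07 ± 0.13. The difference for Psmb7 to Psmb10 was 0.46, and 0.27 without DMSO replicate 1. For all 3 pairs every SKI-II ratio was above every DMSO ratio. The ratios reuse the counts of the genes given above, so they are not separate evidence. Of all tested genes taken singly, 50.3% had no overlap in either direction, and the share among other gene pairs was not computed. The 2-sided exact permutation p was 0.1 for each, the smallest that 3 against 3 libraries can give, and 0.1 after adjustment over the 3 pairs. In linear terms per kilobase, Psmb5 stood 3.02 times above Psmb8 in DMSO and 8.30 times in SKI-II. The level of this ratio depends on the exon lengths, 899 bases for Psmb5 and 3381 for Psmb8, which join all annotated exons. By mean normalized counts, Psmb5 was below Psmb8 in DMSO, with 1495 and 1870, and above it in SKI-II, with 2359 and 1091. The difference in log2 ratio between the groups does not depend on the lengths.

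**Figure D5:**
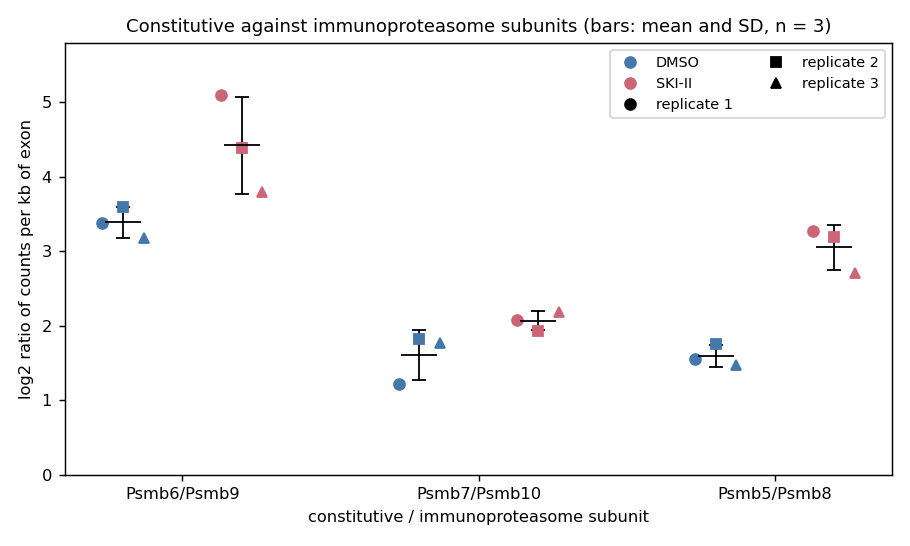
Log2 ratio of counts per kilobase of exon of each constitutive catalytic subunit to its immunoproteasome counterpart, by library, with the mean and SD of 3 libraries. The ratios in SKI-II lie above those in DMSO for each pair, with the widest gap for Psmb5/Psmb8, from 1.59 to 3.05 in the means.

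Genes that work with the proteasome gave calls in both directions. Of 28 tested genes that bind it, deliver substrates to it, process Nrf1 or form the immunoproteasome, 3 rose and 5 fell, which is 28.6% called against 38% of all tested genes. Ufd1 and Nploc4, the cofactors that hand ubiquitinated proteins to VCP, both rose. Ufd1 had 594, 700 and 543 in DMSO and 1379.7, 1250 and 1095 in SKI-II, with a log2 fold change of 1.02 (SE 0.14, edgeR adjusted p = 0.000542), and Nploc4 had 0.67 (adjusted p = 0.00386). Vcp itself had 9242, 8492 and 8709 in DMSO against 11775, 10080.2 and 8576 in SKI-II, a difference of 0.20 on the log2 scale (95% interval -0.12 to 0.53) that was 0.08 without SKI-II replicate 1 and 0.31 without SKI-II replicate 3. Zfand2a, an arsenite-inducible protein that binds the cap, had 637, 830.1 and 1065 in DMSO and 2227, 1637 and 1763 in SKI-II, with 1.15 (SE 0.19, edgeR adjusted p = 0.00145). In each of Ufd1 and Zfand2a all SKI-II libraries were higher.

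Both deubiquitinases that attach to the cap fell. Uchl5 had 1685, 1945 and 2038 in DMSO and 778, 944 and 1163 in SKI-II, with a log2 fold change of -0.97 (SE 0.16, edgeR adjusted p = 0.00125), and Usp14 had -0.63 (adjusted p = 0.00306). The receptor Adrm1, to which Uchl5 binds, had 1989, 2298 and 2457 in DMSO against 3424, 2567 and 2755 in SKI-II, giving 0.37 on the log2 scale with no overlap between the groups but an edgeR adjusted p of 0.0631, and 0.24 (0.198) with SKI-II replicate 1 left out. Ubqln4, a shuttle that carries ubiquitinated proteins, fell from 2702, 2809 and 2858 in DMSO to 1683, 1878 and 2030.3 in SKI-II, with -0.58 (edgeR adjusted p = 0.00345). Nfe2l1, the gene of Nrf1, had 8499, 13019 and 15122 in DMSO and 13742, 13034 and 15789 in SKI-II. These overlap, with a log2 fold change of 0.22 (-0.24 to 0.67) that was -0.00291 without DMSO replicate 1 and 0.40 without DMSO replicate 3, and the mRNA level does not bear on how much Nrf1 protein is processed.

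The spread among replicates was small for most proteasome genes. The median coefficient of variation across the 3 libraries of a group was 8.32% in DMSO and 9.73% in SKI-II, against 14% in both over all tested genes. This spread depends on the level of a gene, and it was not compared at like levels. Psmd10 varied most in DMSO, at 33.8%, and Psmg4, a core assembly chaperone, varied most in SKI-II, at 34.2%. DMSO replicate 3 was the highest DMSO library for 26 of the 45 genes (57.8%), against 42.0% of all tested genes. DMSO replicate 1 was the lowest for 26 (57.8%), against 38.9%.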

How the data were processed

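The data were poly(A) mRNA libraries of RAW264.7 cells, 3 with SKI-II and 3 with DMSO, grouped by their labels. The table used here holds the raw counts of reads per Ensembl gene that the authors deposited; their normalized expression values were not used here. The submitters' processing notes name Trimmomatic 0.36, STAR 2.5.2b, Subread 1.5.2 with featureCounts, and DESeq2; for the build, annotation and strand setting of that step, nothing was given in the sources used here. Without strand, reads of genes that overlap on opposite strands cannot be told apart.

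Gene names, positions and exon lengths were taken from GENCODE M21 on GRCm38, which named 48970 of 49315 identifiers. The exon length of a gene joins all its annotated exons, so comparisons between genes per kilobase depend on it. No pair of libraries in a group was as alike as sampling noise allows (chi-square per degree of freedom 15.4 to 58.1 at 20 or more counts), and each was 1 replicate. Counts were tested with edgeR 4.0.16 in R 4.3.3 (quasi-likelihood F test), with TMM scaling, its filter by expression (minimum count 10, total 15) and p-values adjusted by Benjamini-Hochberg across 12274 genes. Genes were called at an adjusted p under 0.05. For normalized counts, each count was scaled from its library's TMM-adjusted size to the mean of these sizes. The ratios of subunits used a pseudocount of 0.5 counts and an exact permutation test (scipy 1.17.1). Alternatives were DESeq2 1.42.0, limma-voom (limma 3.58.1), RLE or library-size scaling, other filters, each library left out, and the replicate number as a block. On simulated counts for this comparison, with 200 genes changed by a log2 fold change of 1, edgeR recovered 77.5% over 12137 genes with 5 false calls. That size is above the largest of the proteasome genes, 0.73, and the share changed is below the 38% called here. The recovery of differences as small as theirs was not tested.

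The genes named are, in each class, the 2 highest and the lowest by log2 fold change, the catalytic subunits, called genes that went against the median of all members, and fixed or largest-changing genes of the associated list; other members are given by log2 fold change, and genes outside this rule are said to be so. Of 29 associated genes, Paaf1 matched no gene. The members, lists and rules were chosen with earlier results of these data known. Groups of 3 were not screened for single outlying values. Figures were drawn with matplotlib 3.10.9.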

Additional observations from a re-analysis of the deposited data

How the results depend on the processing

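The number of proteasome genes called lower was 3 in place of 5 with DESeq2, with RLE scaling and with no filter on low counts, and between 1 and 6 when each library was left out. Psmb5, Psmc2, Psmc5 and Psme1 kept their calls in all 13 alternatives, with Psmb5 at an adjusted p of at most 0.0166. Pomp lost its call in 7 alternatives, Psme2 and Psmd10 in 6 each and Psmb2 in 5. The median log2 fold change of all members lay between -0.071 and 0.045 when each library was left out, and that of the assembly factors between -0.274 and -0.0496. The antioxidant response element was in 2 windows when an A was required after the core. Without a library, the smallest p of a ratio test was 0.2. Same-numbered libraries correlated in their deviations by 0.25, 0.01 and 0.46, so the numbers were not taken to pair them. SKI-II replicate 2 correlated best with DMSO replicate 1, and the other SKI-II libraries with their own number. With the replicate number as a block, 7 members were called higher, Psmb1 being added (adjusted p = 0.0264), and 5 lower, and Psmb9 (0.00434) and Rad23b (0.0498) among the associated genes also passed. No direction reversed for any called value. Differences inside the intervals given were not resolved by these libraries, whose replicates differed by more than sampling noise. Which part of this is due to depth was not tested.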
